A study of Mus musculus with 4 samples.

Results

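Cck, the gene of the neuropeptide precursor cholecystokinin, and Cckbr, the gene of the cholecystokinin B receptor, were taken by name as 2 of the 20136 genes counted in single cells of the BNST (bed nucleus of stria terminalis), which belongs to the extended amygdala of the forebrain. Cells came from tissue punches of untreated male wildtype C57BL/6J mice. They were captured by Drop-seq, in which a bead in a droplet takes up the RNA of 1 cell under the bead's own barcode, and a further random tag, the unique molecular identifier (UMI), lets each RNA molecule be counted once. There were 4 libraries of a single group, each from a pool of 6 mice (24 mice in all), so n = 4 throughout and comparisons set cell classes side by side within libraries. The labels give no age and no second condition, and pooling hides the spread between single mice.

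Cholecystokinin is made as a long precursor that prohormone convertases, carboxypeptidase E and an amidating enzyme trim to short amidated peptides, and tyrosylprotein sulfotransferases add a sulfate to a tyrosine of the octapeptide. The peptides act on a pair of receptors that couple mainly to Gq: the A receptor, encoded by Cckar, prefers sulfated peptides, and the B receptor, encoded by Cckbr, is the more widespread one in the brain. In the cortex and hippocampus Cck is known both from pyramidal cells and from a class of GABAergic interneurons rich in the cannabinoid receptor gene Cnr1.

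Cck lies on chromosome 9 at 121489824 to 121495694 on the minus strand of GRCm38 (GENCODE vM21). The active octapeptide is encoded in exon 3 of 3, at chr9:121490098-121490139 with its flanks, and that stretch is printed because it is the part of the message that becomes the peptide. Capitals mark the 8 codons of the octapeptide, and the lower-case letters are the 9 coding bases on each side, which hold the basic cleavage site and, after the octapeptide, the glycine used for amidation.
Cck octapeptide coding stretch: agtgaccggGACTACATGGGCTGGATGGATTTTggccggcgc
Cckbr lies on chromosome 7 at 105425731 to 105470898 on the plus strand. Neither gene overlaps another annotated gene. The 150 bases upstream of each start (RefSeq, GRCm38.p6) are shown so that the sequence before each gene can be read beside its levels. They lie at chr9:121495695-121495844 on the minus strand for Cck and at chr7:105425581-105425730 on the plus strand for Cckbr. Capitals mark matches to 2 motifs searched on both strands, the E-box CACGTG and TGCGTCA, a variant of the cyclic AMP response element.
Cck upstream stretch: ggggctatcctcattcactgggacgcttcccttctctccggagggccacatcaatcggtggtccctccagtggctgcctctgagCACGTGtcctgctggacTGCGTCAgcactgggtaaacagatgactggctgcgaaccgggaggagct
Cckbr upstream stretch: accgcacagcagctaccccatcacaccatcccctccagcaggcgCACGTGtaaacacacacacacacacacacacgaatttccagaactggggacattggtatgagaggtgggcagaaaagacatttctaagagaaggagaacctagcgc
CACGTG began 66 bases before the Cck start and 106 bases before the Cckbr start, and it occurs in 4.30% of 32851 promoter windows of the same length. TGCGTCA began 49 bases before the Cck start and occurs in 1.32% of the windows. These are matches of letters and were not tested as sites.

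The libraries held 14018026 UMIs in 10200 barcodes (2640399 to 5652342 UMIs per library). After filtering, 4181 cells remained (837 to 1281 per library) with a median of 1849 UMIs, and no kept barcode occurred in more than 1 library. Cells were sorted into classes by marker UMIs that did not include Cck or Cckbr: 2166 GABAergic neurons, 102 glutamatergic neurons (57, 19, 11 and 15 in libraries 1 to 4), 913 oligodendrocytes, 154 oligodendrocyte precursors, 404 astrocytes, 65 vascular cells and 9 microglia, while 368 cells fell in no class. The glutamatergic cells carried 486 UMIs of Slc17a6 and 1 UMI of Slc17a7, the vesicular glutamate transporter genes, so a Slc17a7-dominant subtype could not be described (0 cells). GABAergic neurons had all 3 of their transmitter markers at 2972 to 3468 CPM in sum (UMIs of a gene per 1000000 UMIs of the class), and glutamatergic markers at 5.82 to 16.8 CPM. The libraries are separate pools of mice, and their spread also holds any difference in preparation.

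In kept cells nearly all of the Cck transcript was in GABAergic neurons. Of the 1872 Cck UMIs in kept cells, 1803 (96.3%) were in GABAergic neurons, 35 in glutamatergic neurons, 28 in cells of no class and 6 in the 1545 non-neuronal cells. Of the 12037744 UMIs of all genes in kept cells, GABAergic neurons held 8890065 and glutamatergic neurons 538866. The split of Cck UMIs therefore also holds how much of each class was captured. A further 329 Cck UMIs (14.9% of all 2201) were in barcodes that the filters left out, where the pooled level was 166 CPM, so GABAergic neurons held 81.9% of all Cck UMIs in the files. In GABAergic neurons the level of Cck was 208 CPM in library 1, 119 in library 2, 333 in library 3 and 180 in library 4, a mean of 210 ± 90.1 (SD, n = 4). The highest library was library 3 and the lowest was library 2, and every one of them was above 3.998 CPM, the highest level over libraries of all non-neuronal cells. Oligodendrocytes, the myelin-forming glia, had 0 Cck UMIs in 913 cells, which allows a share of up to 0.329% of cells with a UMI. Against that limit of 3 counts over the group, the level in GABAergic neurons was at least 105-fold higher. Both values hold for the main cell filter only, since library 4 oligodendrocytes carried Cck with doublets kept and with other cell limits. Astrocytes had 3 Cck UMIs in 404 cells, a pooled ratio of GABAergic neurons to astrocytes of 25.1 (95% counting interval 8.60 to 122). Precursors, vascular cells and microglia had 1 UMI each. In edgeR's quasi-likelihood test on counts summed per library, Cck was higher in neurons than in non-neuronal cells by 5.94 on the log2 scale (SE 0.27, adjusted p = 9.62e-25, 4 of 4 libraries). In that comparison 36.8% of the 10172 genes tested were called higher in neurons, so the call alone does not set Cck apart.

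**Figure D1:**
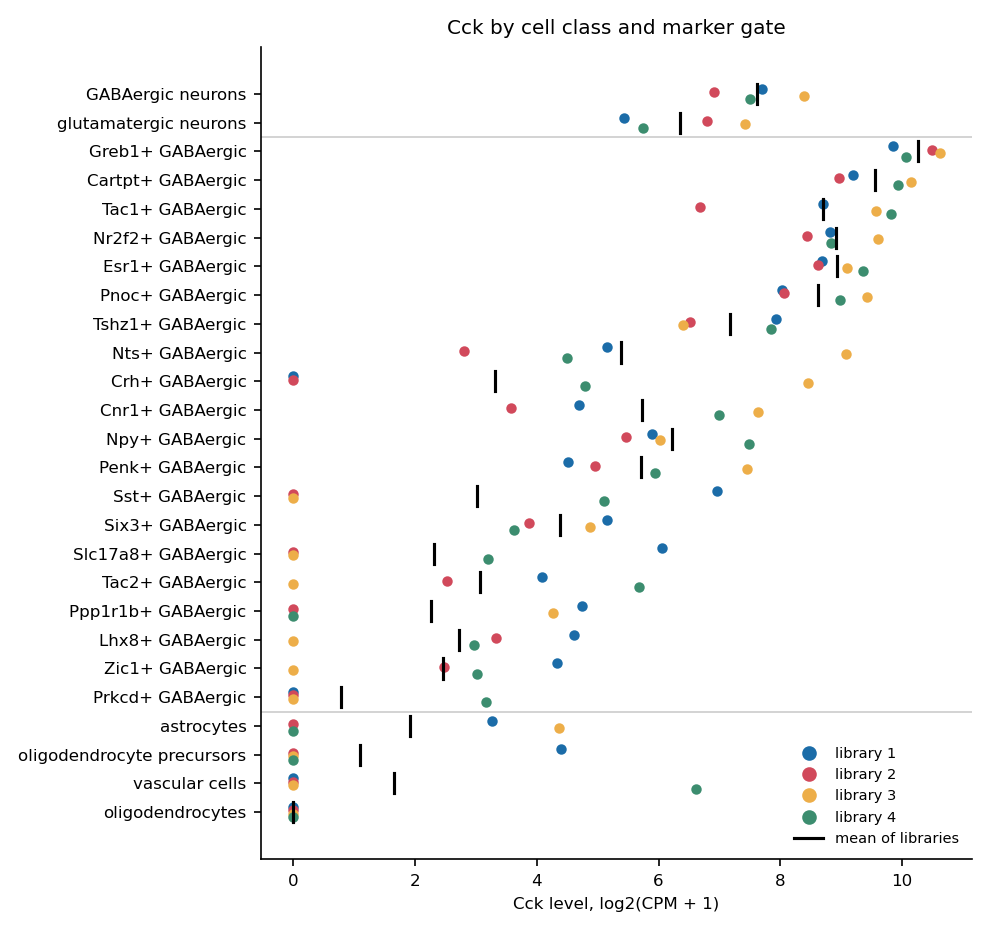
Cck level by cell class and marker gate, as log2(CPM + 1) on the horizontal axis. Points are the 4 libraries and black bars their mean on that scale, with gates ordered by mean CPM: Greb1-positive cells lie highest (923 to 1575 CPM) and all 4 oligodendrocyte points lie at 0.

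Glutamatergic neurons carried Cck at a lower level. Their values were 42.4 CPM in library 1, 110 in library 2, 170 in library 3 and 52.9 in library 4, a mean of 93.8 ± 58.7 (SD, n = 4) from 35 UMIs in 10 cells. The 2 classes overlapped in range, but within each library the GABAergic level was the higher one, by 2.27, 0.11, 0.97 and 1.75 on the log2(CPM + 1) scale. edgeR's quasi-likelihood test gave a log2 difference of -1.57 for glutamatergic against GABAergic neurons (SE 0.25, adjusted p = 2.96e-08), where 1.80% of the 9055 genes tested were called lower. The call was lost with DESeq2 (-1.35, adjusted p = 0.0536), with a 5% mitochondrial limit (-1.29, edgeR adjusted p = 0.0590) and without library 1 (-0.91, edgeR adjusted p = 0.141). The share of cells expected to show Cck when each cell is thinned to 1000 UMIs was 5.77% ± 2.07 in GABAergic neurons (3.45 to 7.75% by library) and 7.09% ± 3.67 in glutamatergic neurons (SD, n = 4), which is the other order than the CPM, so no order is read from it. Without thinning, 9.23% ± 2.74 of GABAergic and 9.20% ± 1.82 of glutamatergic neurons had a Cck UMI, at median depths of 3502 and 4704 UMIs, against 0 in oligodendrocytes at 1384. In GABAergic neurons 183 cells and in glutamatergic neurons 7 cells were shallower than 1000 UMIs and were left out of the thinned share.

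Within the GABAergic class Cck was concentrated in few cells. No Cck UMI was found in 1966 cells, 67 cells had 1, and 133 had at least 2 (59, 16, 33 and 25 in libraries 1 to 4). The 44 cells with at least 10 Cck UMIs (17, 6, 13 and 8) held 74.2% of all Cck UMIs of the class, and the share was 72.4, 73.6, 78.6 and 72.5% in the 4 libraries. The highest cell held 67 UMIs, and cells with at least 10 UMIs were found in every pool. These 44 cells were also deep, with a median of 7306 UMIs against 3374 in cells without Cck. Of the 44, 86.4% had an Nr2f2 UMI (at least 62.5% in each library), 81.8% passed the Cartpt gate (76.5 to 87.5%), 59.1% had Pnoc and 50.0% had Greb1. None had a Six3 or Zic1 UMI, which are forebrain transcription factor genes found in 21.7% and 11.9% of the Cck-negative cells. The minimum of 10 UMIs was set as a description and carries no test.

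**Figure D2:**
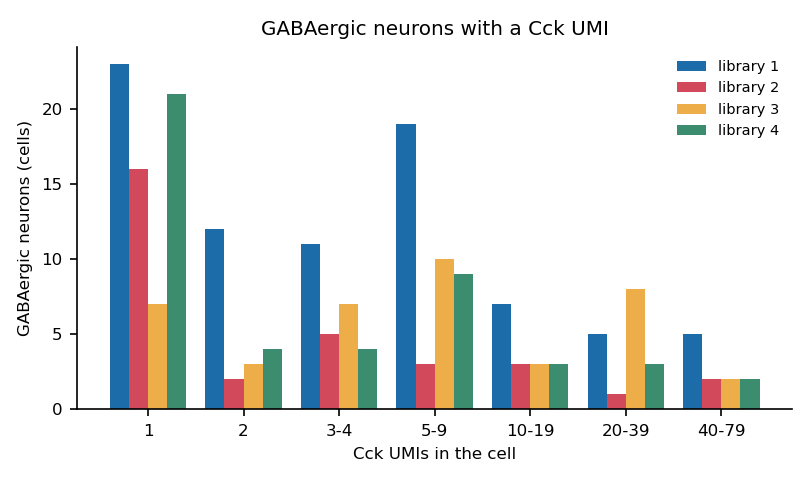
Number of GABAergic neurons (vertical axis) by the number of Cck UMIs in the cell (horizontal axis), with 1 bar per library; cells with 0 UMIs are left out. All 4 libraries have cells in the bins from 10 UMIs upward, 44 cells in all.

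GABAergic subtypes were then gated by the UMIs of 1 marker each and compared with GABAergic cells that had 0 UMIs of it. Cck differed in 19 of the 20 gates with enough cells: it was higher in 6 and lower in 13 (edgeR, Benjamini-Hochberg over all genes of all gates). Over all genes and gates 2.36% of tests were called higher and 2.27% lower, the median gene was called in 0 gates, and 1 of the 8026 genes tested in every gate (0.0125%), Cck itself counted, reached 19. The gates overlap, since 1549 of 2166 cells passed several, so they are not independent. The markers were chosen with earlier results on these cells known, so the place of Cck among the genes is a description and no test. That place was counted in the main fit only, and with DESeq2 Cck was called in fewer gates (5 higher and 9 lower).

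The gates with the highest Cck were those of Greb1, an oestrogen-responsive gene, and Cartpt, the gene of the CART neuropeptide. In the 109 Greb1-positive cells Cck stood at 923, 1435, 1575 and 1078 CPM in libraries 1 to 4, a mean of 1253 ± 303 (SD, n = 4), and 59 of them had a Cck UMI. Marker-negative cells averaged 103.5 CPM, and the log2 difference was 3.61 (SE 0.15, edgeR adjusted p = 5.20e-45, higher in 4 of 4). In the 341 Cartpt-positive cells the values were 588, 498, 1137 and 980 CPM, a mean of 801 ± 307 (SD, n = 4), with a log2 difference of 3.83 (SE 0.14, edgeR adjusted p = 4.80e-22, 4 of 4). Cells positive for Nr2f2, which encodes the transcription factor COUP-TFII, had 448, 347, 775 and 453 CPM, a mean of 506 ± 186 (SD, n = 4), against 43.8 in Nr2f2-negative cells (log2 difference 3.45, SE 0.14, edgeR adjusted p = 1.87e-24, 4 of 4). Nr2f2 overlaps an annotated gene on the other strand, and the strand setting of the counting is not given in the sources used here.

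The other 3 gates with higher Cck differed less. Pnoc, the gene of the nociceptin precursor, marked 461 cells with 260, 266, 685 and 508 CPM of Cck, a mean of 430 ± 206 (SD, n = 4), and a log2 difference of 1.60 (SE 0.18, edgeR adjusted p = 1.59e-06, 4 of 4). Esr1, the oestrogen receptor alpha gene, marked 151 cells with 412, 391, 548 and 655 CPM (log2 difference 1.54, SE 0.15, edgeR adjusted p = 4.99e-09, 4 of 4). Tac1, the gene of the substance P precursor, marked 252 cells with 418, 102, 761 and 903 CPM, and here the libraries did not move together: Cck was higher in 3 of 4 and the log2 difference of 1.73 (SE 0.23, edgeR adjusted p = 3.19e-06) was lost with DESeq2 (1.56, adjusted p = 0.443).

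**Figure D3:**
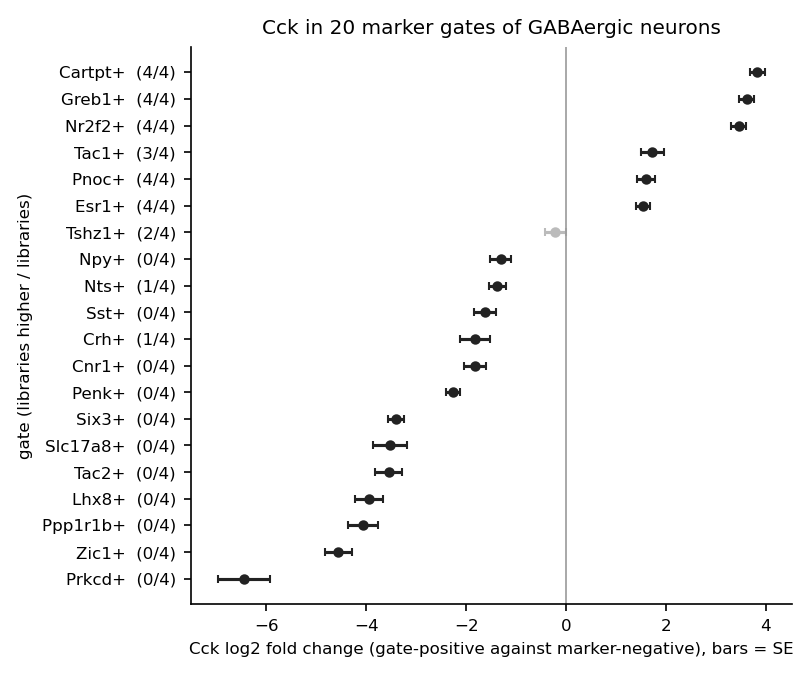
Log2 difference of Cck (horizontal axis) between marker-positive and marker-negative GABAergic neurons in 20 gates. Bars are standard errors derived from edgeR's F statistic. Black points passed an adjusted p of 0.05 and the grey point (Tshz1) did not; the label gives the number of libraries in which Cck was higher.

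Cck was lowest in cells positive for Prkcd, the gene of protein kinase C delta, which marks a known GABAergic population of the extended amygdala. Those 101 cells held 1 Cck UMI, in library 4, and the other 3 libraries were at 0; the log2 difference was -6.44 (SE 0.53, edgeR adjusted p = 1.97e-11). Zic1-positive cells had 10 Cck UMIs in 239 cells, at 19.2, 4.56, 0 and 7.05 CPM (log2 difference -4.56, SE 0.27, edgeR adjusted p = 1.11e-16). Cck was also lower in 4 of 4 libraries in cells positive for Ppp1r1b, the DARPP-32 gene of striatal-type neurons (-4.06), Lhx8 (-3.94), Tac2 (-3.55), Slc17a8 (-3.52), Six3 (-3.40), Penk (-2.26), Cnr1 (-1.82), Sst (-1.62) and Npy (-1.30). Single libraries moved several of these values. Cck in Prkcd-positive cells was at -10.9 without library 4, which held their only Cck UMI. Cck in Slc17a8-positive cells was at -6.21 without library 1, which held 8 of their 9 Cck UMIs, and at -2.23 with a 5% mitochondrial limit. Without library 1 the difference was -5.64 for Cck in Zic1-positive cells, -5.44 for Cck in Ppp1r1b-positive cells, -4.91 for Cck in Lhx8-positive cells and -3.52 for Cck in Sst-positive cells. Without library 4 it was -4.32 for Cck in Tac2-positive cells and -2.04 for Cck in Npy-positive cells. These 8 gates kept their call without those libraries. Reads of Penk, Ppp1r1b, Six3 and Zic1 may include an overlapping gene on the other strand.

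In 2 of the gates called lower, Crh and Nts, Cck was lower in 3 of 4 libraries only. Crh, the gene of corticotropin-releasing hormone, marked cells with 0, 0, 349 and 26.8 CPM of Cck, and 66 of their 84 Cck UMIs were in 1 cell. The log2 difference was -1.82 (SE 0.30, edgeR adjusted p = 9.52e-06), it was -1.07 without library 1 and -4.74 without library 3, and it was lost with DESeq2 (-4.88, adjusted p = 0.213). Nts, the neurotensin gene, marked cells with 34.7, 5.97, 543 and 21.7 CPM, with 66 of 108 UMIs in 1 cell. The log2 difference was -1.38 (SE 0.17, edgeR adjusted p = 1.54e-11). It was -3.19 without library 3, and the call was lost without library 1 (-0.82, edgeR adjusted p = 0.203) and with DESeq2 (-2.58, adjusted p = 0.228). The Cnr1 (-2.21, adjusted p = 0.117) and Sst (-3.66, adjusted p = 0.140) gates also lost their call with DESeq2, and the Npy gate lost it with a 5% mitochondrial limit (-0.62, edgeR adjusted p = 0.351). Tshz1 was the gate in which Cck did not pass (-0.21, SE 0.20, edgeR adjusted p = 0.736), with 244, 90.9, 83.3 and 229 CPM.

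In the order of mean CPM, Greb1 was followed by Cartpt, Tac1, Nr2f2, Esr1, Pnoc, Tshz1, Nts, Crh, Cnr1, Npy, Penk, Sst, Six3, Slc17a8, Tac2, Ppp1r1b, Lhx8, Zic1 and Prkcd. The ranges of 18 of 19 neighbouring pairs overlapped. The exception was Pnoc (260 to 685 CPM) above Tshz1 (83.3 to 244 CPM), which was the order in 4 of 4 libraries. Vip (15 cells) and Htr3a (28 cells), both among the 12 listed markers of forebrain Cck interneurons, had too few cells for a fit. Vip-positive cells held 13 Cck UMIs in 2 cells (182 CPM pooled). Htr3a-positive cells held 120 Cck UMIs in 10 cells (773 CPM pooled), with 69.2% of them in 2 cells.

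The Nr2f2 and Cartpt gates were crossed after their values were seen, as a description with no test. Cells positive for both, 162 cells, had 1008, 841, 1644 and 1392 CPM of Cck, a mean of 1221 ± 364 (SD, n = 4). Cells with Nr2f2 and no Cartpt had 124 ± 21.6 (SD, n = 4; 104 to 153 CPM). Cells with Cartpt and no Nr2f2 had 56.0, 45.6, 0 and 646 CPM, where the 99 UMIs of library 4 came from 2 cells. Cells with neither, 1313 cells, had 21.4 ± 11.7 (SD, n = 4). In every library the double-positive cells had the highest level of the 4 combinations. Of the 109 Greb1-positive cells, 84.4% also had Nr2f2 and 53.2% passed the Cartpt gate.

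Cckbr was sparse. Of its 94 UMIs in kept cells (a further 14 were in barcodes left out), 82 (87.2%) were in GABAergic neurons, 6 in glutamatergic neurons, 6 in cells of no class and 0 in non-neuronal cells. GABAergic neurons held 8890065 of the 12037744 UMIs of all genes in kept cells. The level in GABAergic neurons was 10.8, 7.36, 9.16 and 8.15 CPM, a mean of 8.87 ± 1.49 (SD, n = 4), which is an even spread over the libraries. The 82 UMIs lay in 75 cells and no cell held more than 3. In all 1545 non-neuronal cells the 0 UMIs allow at most 0.194% of cells to carry one. Against that limit of 3 counts the level in GABAergic neurons was at least 6.77-fold higher than in these cells together. Taken alone, the limit was 4.76-fold for oligodendrocytes and 1.14-fold for astrocytes. For precursors (0.578) and vascular cells (0.262) it allows a level as high as in GABAergic neurons. edgeR, without its low-count filter, gave an adjusted p of 4.41e-07 for neurons (88 UMIs) against non-neuronal cells, where 25.3% of genes were called higher in neurons. At 1000 UMIs the expected share of GABAergic neurons with Cckbr was 0.938% ± 0.294 (SD, n = 4), and without thinning it was 3.36% ± 1.25, against 0 in oligodendrocytes. Many cells that express a gene at this level show no UMI of it.

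Cckbr did not differ detectably between the neuron classes or the subtypes. Glutamatergic neurons had 8.49, 0, 42.4 and 17.6 CPM from 6 UMIs in 6 cells, a mean of 17.1 ± 18.3 (SD, n = 4), a log2 difference of 0.05 from GABAergic neurons (SE 0.73, edgeR without filter, adjusted p = 0.974). Of all genes in that fit 2.13% were called. In 0 of 20 gates did Cckbr pass, against 2.62% of all tests in those fits, and DESeq2 also called 0. Unadjusted p values under 0.05 occurred in 2 gates. In Six3-positive cells Cckbr was at 20.4, 8.18, 17.7 and 9.10 CPM, a log2 difference of 0.83 (SE 0.37, edgeR adjusted p = 0.383) that was positive in 4 of 4. In Crh-positive cells it was at 4.00, 0, 4.597 and 3.35 CPM, a log2 difference of -1.72 (SE 0.65, edgeR adjusted p = 0.187) that was negative in 4 of 4. Mean levels over the 20 gates ran from 2.99 CPM (Crh) to 13.8 CPM (Six3), each from 2 to 29 UMIs. At this depth the standard errors of Cckbr in gates are large, so the lack of a call does not show equal levels.

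The receptors were next compared between GABAergic neurons with at least 2 Cck UMIs (133 cells, Cck-positive) and those with 0 (1966 cells, Cck-negative). Cckbr was at 2.54, 20.4, 0 and 0 CPM in Cck-positive cells from 3 UMIs and at 11.1, 6.91, 11.3 and 9.09 CPM in Cck-negative cells from 75 UMIs. The means were 5.73 ± 9.84 and 9.58 ± 2.03 (SD, n = 4), and the log2 difference of -1.47 did not pass (SE 0.81, edgeR without filter, adjusted p = 0.665; 2.19% of genes called). It was -2.94 without library 2, which held 2 of the 3 UMIs, and ran from -2.94 to -0.78 over the alternatives, none of which gave a call. With 1 Cck UMI counted as enough, 7 GABAergic cells held both transcripts, 5 in library 1 and 2 in library 2. Cckar, the A receptor gene on chromosome 5, was at 22.9, 71.3, 60.5 and 25.6 CPM in Cck-positive cells and at 5.53, 5.18, 6.07 and 4.54 CPM in Cck-negative cells. The ranges did not overlap, and the log2 difference was 2.86 (SE 0.44, edgeR adjusted p = 6.06e-06, 4 of 4), where 2.46% of genes were called higher. It rests on 33 and 41 UMIs, and 27 cells held both Cck and Cckar. Cckar had 0 UMIs in glutamatergic and non-neuronal cells. It was also called higher in the Greb1 (2.16), Pnoc (1.77), Cartpt (1.74) and Nr2f2 (1.58) gates, in 4 of 4 libraries each (edgeR). Over all genes and gates 2.36% of tests were called higher. Of the remaining gates only Tac1 passed the low-count filter for Cckar, and Cckar was not called there (0.99, edgeR adjusted p = 0.276). Without the filter Cckar was at 0.91 in the Lhx8 gate, where Cck was low (edgeR adjusted p = 0.752, higher in 4 of 4). Also without the filter, Cckar was called lower in the Penk gate (-3.53, edgeR adjusted p = 1.41e-05, lower in 4 of 4). The same held in the Zic1 (-6.43, 0 UMIs, edgeR adjusted p = 0.00353) and Six3 (-1.98, edgeR adjusted p = 0.0223) gates. Over all genes and gates in those fits 1.68% of tests were called lower. Whether the 2 receptor genes differed in their relation to Cck was not tested.

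**Figure D4:**
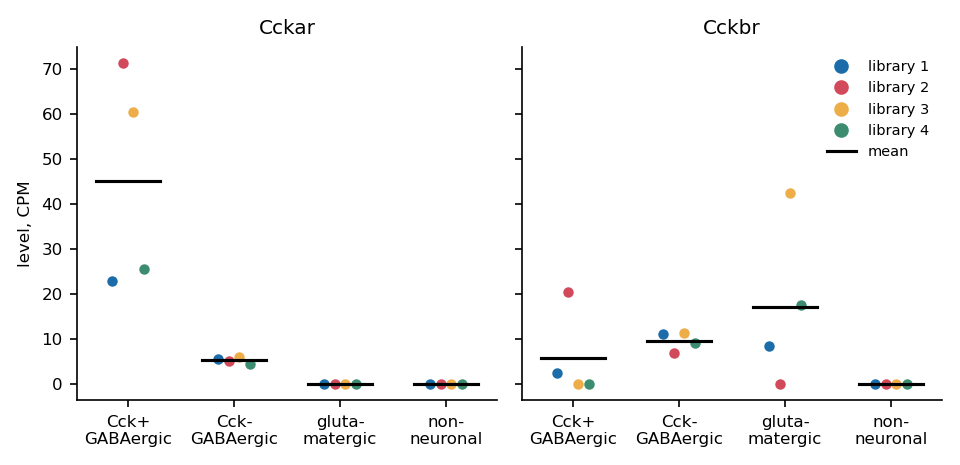
Levels of Cckar (left) and Cckbr (right) in CPM on the vertical axis, in Cck-positive and Cck-negative GABAergic neurons, glutamatergic neurons and non-neuronal cells. Points are the 4 libraries and bars their mean; Cckar in Cck-positive cells (22.9 to 71.3 CPM) lies above every Cck-negative value, while Cckbr overlaps.

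Across the transcriptome, 368 of 8619 genes (4.27%) differed between Cck-positive and Cck-negative GABAergic neurons, 212 higher and 156 lower (1.81%), and 189 and 146 of them did so in 4 of 4 libraries (edgeR; 1177 genes at an unadjusted p under 0.05). Cck-positive cells were deeper, with a median of 6038 UMIs against 3374 in Cck-negative cells. With negative cells matched on depth, 85 genes were higher and 51 lower among 3951 tested, and 127 of these 136 calls were shared. DESeq2 called 115 higher and 57 lower, and a 5% mitochondrial limit left 68 and 56. Markers of several other cell types summed to lower ranges in Cck-positive cells, but from few UMIs. Cck-positive cells held 98156 to 393263 UMIs per library, against 1153639 to 3076367 in Cck-negative cells. In library 2 of the Cck-positive cells 2 UMIs make 20.4 CPM. A sum at or near 0 in a library therefore does not by itself show a lower level. The 8 vascular markers summed to 0 to 20.4 CPM in Cck-positive and 33.8 to 42.0 CPM in Cck-negative cells, the 6 precursor markers to 0 to 4.32 and 4.55 to 14.7 CPM, and the 7 microglial markers to 0 and 0.325 to 6.93 CPM. The 6 oligodendrocyte markers summed to 13.0 to 59.6 CPM in Cck-positive and 20.2 to 52.0 CPM in Cck-negative cells, and the 8 astrocyte markers to 0 to 25.9 and 12.7 to 47.7 CPM. Both glutamatergic markers were at 0 in Cck-positive cells and at 6.83 to 18.4 CPM in Cck-negative cells. The part of these markers in the differences was not tested.

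The 10 largest rises in Cck-positive cells that held in 4 of 4 libraries were led by Esr2, Greb1 and Cyp19a1. Esr2, the oestrogen receptor beta gene, averaged 36.6 CPM against 1.25 (log2 difference 4.83, SE 0.58, edgeR adjusted p = 3.30e-08), and Cyp19a1, the gene of aromatase, which makes oestrogen, averaged 40.1 against 3.98 (3.19, SE 0.46, edgeR adjusted p = 1.40e-06). Greb1 averaged 99.3 against 9.75 CPM (3.27), and Hcrtr1, the orexin receptor 1 gene, 56.4 against 6.37 (3.00). The other large rises were Cckar, Gldn (2.73), Unc5b, a netrin receptor gene (2.57), Grik1, a kainate receptor subunit gene (2.43), Nxph2 (2.39) and Id2 (2.31). The largest falls were in Prkcd and Serpinb1b, both with 0 UMIs in Cck-positive cells against 262 and 114, Igfbp4 (-4.74), Pou3f1 (-4.61), Slc17a8 (-4.58), Ebf1 (-4.32), Sst (-4.26), Stk32a (-4.20), Crabp1 (-4.15) and Dhrs7 (-3.86). Pou3f1, Ebf1, Stk32a, Crabp1 and Dhrs7 rest on 1 UMI in Cck-positive cells, and Igfbp4 and Slc17a8 on 2, so the sizes of these falls are loose. Over the alternatives they ran from -7.95 to -2.06 for Pou3f1, -7.25 to -3.28 for Ebf1, -7.78 to -2.78 for Stk32a, -7.62 to -2.40 for Crabp1, -7.49 to -2.12 for Dhrs7, -5.55 to -3.37 for Igfbp4 and -9.24 to -3.73 for Slc17a8. The lowest values came without library 1 (Pou3f1, Ebf1, Slc17a8), library 2 (Dhrs7) or library 4 (Stk32a, Crabp1, Igfbp4). Serpinb1b and Dhrs7 did not pass with DESeq2 (adjusted p = 0.0739 and 0.0957), and Dhrs7 did not pass without library 1 (edgeR adjusted p = 0.0850).

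Transcripts of the peptide maturation genes were found in both groups of cells, some of them from few UMIs. Of the 12 peptide maturation genes, all of them tested, 2 were higher and 0 lower, with a median log2 difference of 0.02. Over all 8619 genes tested 2.46% were higher and 1.81% lower, with a median of 0.0029. Scg2, which encodes secretogranin II of dense-core vesicles, averaged 2026 CPM against 1264 (0.71, SE 0.07, edgeR adjusted p = 8.30e-10), and Chgb, chromogranin B, 775 against 557 (0.47, edgeR adjusted p = 2.12e-04). The Chgb call was lost with a 5% mitochondrial limit (0.34, edgeR adjusted p = 0.194). The convertase gene Pcsk2 was at 110 against 105 CPM, and Cpe, the gene of carboxypeptidase E, at 548 against 630. Pam, the gene of the amidating enzyme, was at 321 against 319, and the sulfotransferase gene Tpst1 at 48.8 against 31.7. These 4 did not pass. The convertase gene Pcsk1 also did not pass (-0.81, SE 0.54, edgeR adjusted p = 0.577). Pcsk1 averaged 7.92 against 16.7 CPM, was lower in 4 of 4 libraries, and rests on 8 UMIs in Cck-positive cells. Pcsk5 rests on 9 UMIs there.

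Of the 14 receptor and Gq pathway genes, 10 were tested, and 1 was higher (Cckar) and 1 lower, with a median of 0.13, beside 2.46% higher, 1.81% lower and a median of 0.0029 over all genes tested. The lower one was Prkcb, a protein kinase C gene, at 67.7 against 154 CPM (-1.03, SE 0.20, edgeR adjusted p = 3.13e-04). Gnaq, the gene of the Gq alpha subunit, was at 391 against 339 CPM and did not pass. Cckbr, Gna14, Plcb3 and Trpc1 were under the low-count filter.

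Of 12 genes listed as markers of forebrain Cck interneurons, 8 were tested. They had 2 higher, 4 lower and a median of -0.61, beside 2.46%, 1.81% and 0.0029 over all genes tested. Nr2f2 (1.78) and Calb1 (0.82), the calbindin gene, were higher in 4 of 4 libraries. Slc17a8 (-4.58), Npy (-2.17), Tac2 (-1.28) and Cnr1 (-0.88) were lower. Cnr1 was lower in 3 of 4 libraries (edgeR adjusted p = 0.0288), and its call was lost with DESeq2 (adjusted p = 0.371), with a 5% mitochondrial limit (-0.27, edgeR adjusted p = 0.883) and without library 1 (edgeR adjusted p = 0.228) or 3 (edgeR adjusted p = 0.184). Calb1 also did not pass with the 5% limit (edgeR adjusted p = 0.0845), and Tac2 (-0.94, edgeR adjusted p = 0.164) and Npy (-1.82, edgeR adjusted p = 0.303) did not pass against depth-matched cells. Npy also did not pass with DESeq2 (adjusted p = 0.0893), nor did Tac2 with DESeq2 (adjusted p = 0.332), with the 5% limit (-0.46, edgeR adjusted p = 0.599) or with no replicate block (edgeR adjusted p = 0.522). Without library 1, Tac2 in Cck-positive cells was at -2.93 and Npy in Cck-positive cells at -1.31, and Npy was at -2.98 without library 3.

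Of 17 other neuropeptide genes, 13 were tested, with 4 higher, 7 lower and a median of -1.16, beside 2.46%, 1.81% and 0.0029 over all genes tested. Cartpt averaged 1895 CPM in Cck-positive and 392 in Cck-negative cells (SE of the log2 difference 0.13, edgeR adjusted p = 2.84e-17), Tac1 717 against 238 (1.60) and Pnoc 384 against 121 (1.58), each higher in 4 of 4 libraries. These are the same associations as in the gates, counted from the Cck side. Gal, the galanin gene, was higher in 3 of 4 libraries (1.43, edgeR adjusted p = 0.00602) and did not pass without library 4 (0.39, edgeR adjusted p = 0.309) or with DESeq2 (1.27, adjusted p = 1.000). Gal in Cck-positive cells was at 2.06 without library 2. Sst averaged 48.7 against 1002 CPM (-4.26), Crh 32.0 against 323 (-3.56) and Penk 130 against 780 (-2.51), each lower in 4 of 4 libraries. Npy, Pdyn (-1.88), Tac2 and Nts (-1.16) were also lower in 4 of 4. Npy and Tac2 are in the interneuron list as well, so their falls count in both lists. Crh in Cck-positive cells was at -2.85 without library 1 and -4.55 without library 3, and Pdyn in Cck-positive cells at -2.55 without library 3. Pdyn did not pass with the 5% mitochondrial limit (edgeR adjusted p = 0.0688), and Nts did not pass with that limit (edgeR adjusted p = 0.129) or with DESeq2 (adjusted p = 0.490).

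**Figure D5:**
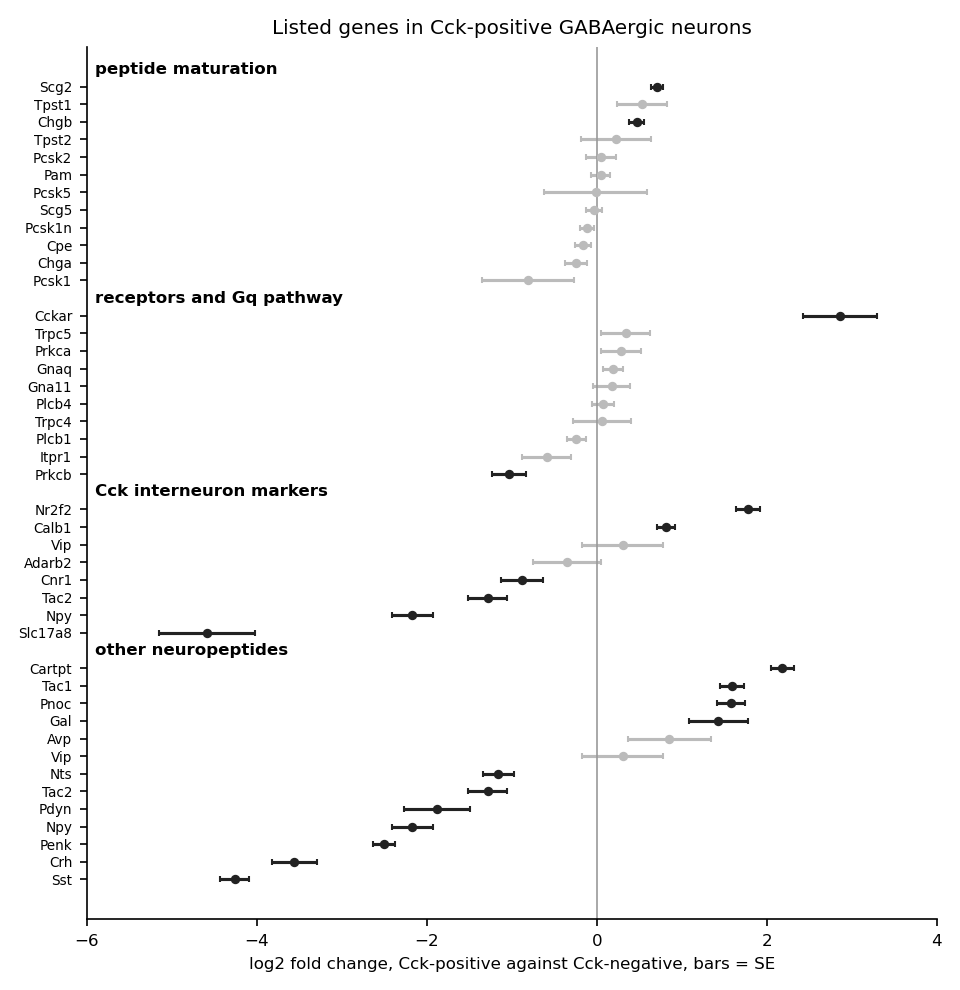
Log2 difference between Cck-positive and Cck-negative GABAergic neurons (horizontal axis) for the tested genes of 4 lists. Bars are standard errors derived from edgeR's F statistic. Black points passed an adjusted p of 0.05 and grey points did not. Of the peptide maturation genes only Scg2 (0.71) and Chgb (0.47) passed. Pcsk1 (-0.81) and Tpst1 (0.54) also lie away from 0 but did not pass. The other neuropeptides split into 4 higher and 7 lower.

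Over 25 classes and gates, which share cells and libraries, the gene whose mean log2(CPM + 1) was most like that of Cck was Greb1 (Pearson r = 0.94), followed by Gal (0.86), Enah, Idnk and Tmem215 (0.80 each). For Cckbr they were Sphkap (0.86), Rerg, Syndig1, Stk32c and 1110001A16Rik (0.85 each). Cckbr had 0 UMIs in the non-neuronal classes and differed detectably in no gate. How far its likenesses follow the contrast of neurons with non-neuronal cells was not tested. The Greb1-positive cells are themselves one of the 25 groups, as are the cells of other markers, so the likeness of Greb1 is in part set by the gating. These values describe the groups and carry no test.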

How the data were processed

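The deposited tables hold raw UMI counts per gene and cell barcode, which the authors made with bcl2fastq 2.18.0.12, STAR 2.4.2a and Picard 2.2.4 and the mm10 (GRCm38) genome, per the submitters' processing notes. The annotation, counting strand and barcode rule are not given in the sources used here. The members, lists, markers and gates were chosen with earlier results of these data known.

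Barcodes were kept from 400 detected genes up and with a mitochondrial share of no more than 10%, and 58 of 4239 (1.37%) were removed as doublets by Scrublet (scanpy 1.11.5, expected rate 0.05). GABAergic neurons had at least 2 UMIs of Gad1, Gad2 and Slc32a1 in sum and more than of Slc17a6 and Slc17a7, and glutamatergic neurons at least 1 UMI of the latter and more than of the former. Glia had at least 2 UMIs from 2 genes of their own list. Gates needed 1 UMI, or 2 for Tac2, Sst, Npy, Crh, Penk, Tac1, Cartpt, Nts and Ppp1r1b. Counts were summed per library and side (at least 10 cells each) and compared by the quasi-likelihood F-test of edgeR 4.0.16 (R 4.3.3) after TMM scaling and filterByExpr, at a Benjamini-Hochberg adjusted p of 0.05. Library entered as a block because the sums of a library come from 1 pool of mice. The gating gene was left out of its own fit. Each SE given with an edgeR value was derived from that test, as the absolute log2 difference divided by the square root of F. DESeq2 1.42.0 was an alternative. edgeR draws each gene's spread towards that of other genes, so its standard errors can be smaller than the spread of Cck between libraries. Its p values can likewise be smaller than that spread would give, and they do not measure it.

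Cckbr passed the low-count filter in 3 gates only (Pnoc, Nr2f2 and Cartpt), so its test values come from the same fits without that filter, which departs from the planned design. Leaving the filter out changes the test. For Cck in the Pnoc gate the edgeR adjusted p was 1.59e-06 with the filter and 8.40e-61 without it. For Cckbr in the Cartpt gate it was 0.848 and 0.945. Values with and without the filter are therefore not on the same footing. CPM is UMIs of a gene per 1000000 UMIs of the class, with 1 added before log2. The share at 1000 UMIs is the mean chance that 1000 UMIs drawn from a cell include the gene. Limits for 0 counts use 3 counts, and these and the 95% intervals (exact Poisson) cover counting error only.

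Named genes were the 10 largest rises and 10 largest falls past the threshold and changed the same way in 4 libraries, the listed genes past it, and the 5 genes most like each member among those with a mean of at least 20 CPM. Listed genes that did not pass and are named were chosen after their values were seen. Of the gene names, 93.5% were found in GENCODE vM21. On simulated counts with 2-fold changes edgeR recovered 43.8% of changed genes for Cck-positive against Cck-negative cells (8652 genes) and 75.7% for the Pnoc gate (9713 genes). It recovered 57.8% for neurons against non-neuronal cells (9912 genes) and 31.7% for the transmitter classes (9060 genes), where 7.02% of calls were wrong. These counts had the same fixed spread for all genes and reduced library effects, and only genes above a minimum of UMIs were changed. The rates are therefore not error rates of the real counts.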

Additional observations from a re-analysis of the deposited data

Results flagged for a closer look

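A library was picked out where its gap to the nearest of the other 3 in units of the range exceeded Dixon's 95% critical value. The search covered 124 sets of 4 values for Cck and Cckbr, and 18 were found. Chance flags about 1 in 20 sets of even error, but a set with a single UMI always exceeds the value and many sets share cells, so no number by chance is given for these sparse counts.

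For Cck in CPM, library 3 stood apart in Crh-positive cells (349, the others at most 26.8) and in Nts-positive cells (543, the others at most 34.7), where 1 cell held 66 UMIs of each gate's total. Library 4 stood apart in Npy-positive cells (179, the others 43.1 to 64.0), in cells with Cartpt and no Nr2f2 (646, the others at most 56.0), in Prkcd-positive cells (7.92, a single UMI) and in vascular cells (96.6, a single UMI). Library 1 stood apart in Slc17a8-positive cells (65.3, the others at most 8.14) and in oligodendrocyte precursors (20.1, a single UMI).

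For the expected share of cells with Cck at 1000 UMIs, library 1 was high in cells with neither Nr2f2 nor Cartpt (3.52%, the others at most 1.31%), in all non-neuronal cells (0.501%, the others at 0) and in oligodendrocyte precursors (2.67%, the others at 0), and library 4 was high in Prkcd-positive cells (0.721%, the others at 0).

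For Cckbr, library 2 was high in Cck-positive cells, at 20.4 CPM (2 UMIs) and at a share of 1.61% (the others at most 0.207%). Library 3 was high in Lhx8-positive cells, at 21.5 CPM (the others at most 2.94) and a share of 1.46% (the others at most 0.163%), and in Cnr1-positive cells, at a share of 1.16% (the others at most 0.416%). Library 1 was low in cells with Cartpt and no Nr2f2, at 10.2 CPM (the others 18.1 to 19.6).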

How the results depend on the processing

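The 6 gates with higher Cck and the 13 with lower Cck were 5 and 9 with DESeq2, 6 and 9 with no replicate block, 6 and 11 of 19 with a 5% mitochondrial limit, 6 and 10 of 17 against depth-matched cells, and 6 and 12 to 13 without each library in turn. Gates were 0 and 0 for Cckbr under all alternatives run. The counts of 212 genes higher and 156 lower in Cck-positive cells became 115 and 57 with DESeq2, 68 and 56 with the 5% limit, 85 and 51 with depth matching (fewer genes tested), and 79 and 63 with no replicate block; without each library in turn they were 143 to 189 and 112 to 165. The library pairs both sums because they come from 1 pool of mice, and of the named results 10 lost their call without that block, among them Cck in the Cnr1 (-1.64), Npy (-1.33), Crh (-1.54) and Nts (-1.07) gates. Cck in glutamatergic against GABAergic neurons fell under the threshold with DESeq2 (-1.35), with the 5% limit (-1.29) and without library 1, and ran from -1.92 to -0.91 over all alternatives. The Cckbr difference between these classes, 0.05, turned to -0.27 with at least 2 UMIs for both classes, to -2.02 with the 5% limit, and to -0.41 and -0.00041 without libraries 3 and 4 (-0.41 to 0.78 without each library in turn). Cck in the Tshz1 gate turned to 0.032 with depth matching and 0.20 without library 3 (-0.63 to 0.20 without each library in turn). Shares follow depth: Cck was at 8.53% at 2000 UMIs, and Cckbr at 0.551% at 500 and 1.69% at 2000. Of the comparisons of named results with an alternative, 890 kept direction and side of the threshold, 37 lost the call and 2 changed sign. The cause of these changes was not tested, and the depth-matched fit also had fewer genes (3951). Requiring cells to pass 1 gate only gave a fit in the Six3, Penk and Cnr1 gates, which are among the named results but not in the counts of gates. Depth limits Cckbr, with 94 UMIs in all kept cells.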
